A study of Mus musculus with 3 samples.

Results

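Mitotic progenitors, the cells of a bone marrow progenitor preparation that carried the transcripts of late G2 and mitosis, made up 3483 of 21251 cells. They were chosen by a score, the summed UMIs (unique molecules counted) of 10 genes per 10000 UMIs of the cell, and a cell was a member at a score of at least 10. The 10 genes were Cenpf, Nusap1, Aspm, Hmmr, Ube2c, Ccnb2, Cdc20, Ccnb1, Cdkn3 and Kif2c. The cells came from the LSK gate of mouse bone marrow, which takes cells without mature lineage markers that carry Sca-1 and Kit, the fraction in which blood stem cells and early progenitors are found. Each of 3 genotypes gave 1 droplet library of 3' ends. DKO carried a Spop deletion and no Myd88, Spop(D/D) Myd88(-/-). KO carried the same Spop deletion with Myd88 intact, Spop(D/D) Myd88(+/+). WT had both genes, Spop(+/+) Myd88(+/+). What drives the Spop deletion, the age of the mice and the number of mice per library were not given in the sources used here. SPOP is the substrate receptor of a cullin ubiquitin ligase, and MyD88 is the adaptor that carries signals from Toll-like and interleukin-1 receptors.

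A dividing cell makes the proteins of mitosis in a burst. Cyclin B and CDK1 drive entry into mitosis, Aurora and Polo-like kinases build the spindle, and the anaphase-promoting complex then ubiquitinates cyclin B and securin so that the chromosomes part. Many of these genes are held silent in resting cells by the DREAM complex and are switched on late in the cycle by B-MYB and FOXM1. In bone marrow the long-term stem cells divide rarely, and most division takes place in committed progenitors.

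With 1 library per genotype there was no replicate and no test was made. The ratios below are of summed UMIs, given as counts per 1000000 UMIs (CPM), and the intervals in brackets are exact 95% intervals that cover counting error only. A summed level does not tell more cells with a transcript from more transcript per cell. The members were chosen from these same counts, so every difference between members and other cells is a description. DNA content was not measured, and the name rests on transcripts alone.

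Mitotic cells held more RNA than the other cells of their library. Their median was 17023.5 UMIs in DKO, 20666 in KO and 14278.5 in WT, against 11522, 16294 and 8913 in the rest of DKO, KO and WT. The ratio of the medians was 1.48 in DKO, 1.27 in KO and 1.60 in WT. The median share of mitochondrial UMIs lay between 2.71% and 2.97% in mitotic cells and between 2.67% and 3.06% in the rest. Of 21068 distinct cell barcodes, 183 occurred in more than 1 library, and 6 were shared among mitotic cells of different libraries. Doublets were kept. The automatic Scrublet calls covered only 5 DKO, 14 KO and 2 WT cells, whereas a rate of 0.8% per 1000 cells gives 536, 194 and 531. With that many cells of the highest Scrublet scores left out, 17.95% of DKO, 20.8% of KO and 12.2% of WT cells were mitotic. Xist, the transcript of the inactive X chromosome, stood at 1486 CPM in mitotic cells of DKO and at 0 and 0.0701 CPM in KO and WT, whereas the Y-linked Ddx3y was at 0 CPM in DKO and at 34.2 and 41.4 CPM in KO and WT. The sex of the mice and the genotype therefore cannot be told apart in any comparison with DKO.

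The targeted genes were read first. Myd88 (GRCm38 chr9:119335934-119341411, minus strand) had 4.30 CPM in DKO, 25.7 CPM in KO and 14.9 CPM in WT in mitotic cells, against 4.52 CPM in DKO, 25.9 CPM in KO and 13.4 CPM in WT in the rest. Spop (chr11:95414080-95493406, plus strand) had 91.05 CPM in DKO, 67.8 CPM in KO and 86.6 CPM in WT in mitotic cells. Myd88 transcripts were low in DKO, while Spop transcripts were present in all 3 libraries. Where the deleted part of Spop lies was not given, so a 3' tag of Spop does not check its deletion.

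The share of mitotic cells was highest in KO. It was 17.8% in DKO (1458 of 8184 cells, 17.0 to 18.7), 20.8% in KO (1025 of 4920, 19.7 to 22.0) and 12.3% in WT (1000 of 8147, 11.6 to 13.0; exact Clopper-Pearson intervals). With every cell thinned to 5000 UMIs, which left out 65 DKO, 0 KO and 411 WT cells, the shares were 19.0% in DKO, 23.05% in KO and 13.4% in WT. At 8000 UMIs they were 20.5%, 22.2% and 17.0%, with 1257 DKO, 251 KO and 2962 WT cells left out. The same kept cells before thinning had shares of 19.5% in DKO, 21.2% in KO and 16.3% in WT. Most of the WT rise at 8000 UMIs thus came with leaving out shallow cells. The order of DKO and KO depended on how high the score was set. At a minimum of 20 the share was 10.03% in DKO, 7.80% in KO and 6.58% in WT, so that DKO came first.

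The KO library had many cells of middling score. Scores between 5 and 10 were found in 8.28% of DKO, 15.4% of KO and 5.90% of WT cells. Scores of 30 and over were found in 4.99% of DKO, 2.44% of KO and 3.36% of WT cells. A score of 0 was found in 45.6% of the other cells of DKO, 21.7% of those of KO and 55.5% of those of WT. The median score of mitotic cells was 21.8 in DKO, 17.0 in KO and 21.1 in WT. Just outside the threshold, at 9 to 10, lay 104 DKO, 86 KO and 66 WT cells, and just inside, at 10 to 11, lay 93, 105 and 66. KO cells were also the deepest, and the part of depth in the spread of the scores was not tested beyond the thinning above.

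**Figure D1:**
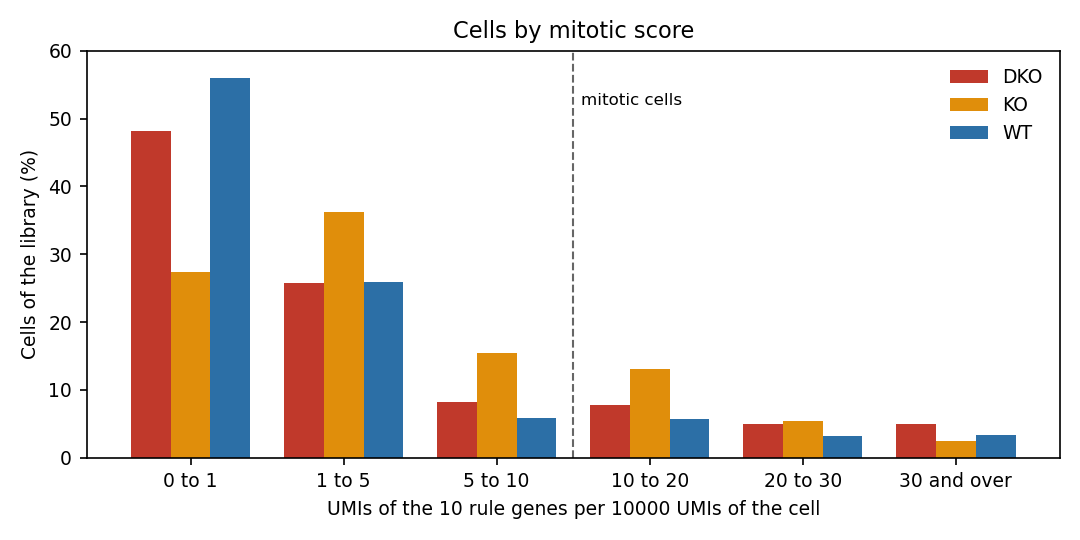
Percentage of each library's cells (y) by the score, the UMIs of the 10 rule genes per 10000 UMIs of the cell (x), for DKO, KO and WT, with 1 library each. KO exceeded both other libraries between 1 and 30, and at 30 and over it had 2.44% of its cells, against 4.99% in DKO and 3.36% in WT.

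The 10 rule genes together reached 2425 CPM in mitotic cells of DKO, 1846 CPM in KO and 2443 CPM in WT, against 188, 327 and 149 CPM in the rest of DKO, KO and WT. These values follow from the rule and are given as a description. Ube2c, the E2 enzyme that works with the anaphase-promoting complex, gave the most of these UMIs, 26.2% in DKO, 35.8% in KO and 27.5% in WT. It stood at 636 against 25.97 CPM in DKO, 661 against 74.7 CPM in KO, and 671 against 22.3 CPM in WT, mitotic cells against the rest. Its level in mitotic cells was alike in the 3 libraries, and its level in the rest was highest in KO.

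Cenpf, a large kinetochore protein, was at 351 against 28.8 CPM in DKO, 257 against 37.3 CPM in KO, and 403 against 27.8 CPM in WT. Ccnb2, which encodes cyclin B2, was at 353 against 33.9 CPM in DKO, 189.7 against 61.8 CPM in KO, and 329 against 25.3 CPM in WT. Its sister Ccnb1, encoding cyclin B1, was at 198 against 15.6 CPM in DKO, 154 against 32.9 CPM in KO, and 184 against 9.81 CPM in WT. For these 3 genes the KO library had both the lowest level in mitotic cells and the highest in the rest, so the contrast was smallest there.

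Nusap1, which bundles spindle microtubules, was at 266 against 30.6 CPM in DKO, 152 against 22.8 CPM in KO, and 271 against 24.9 CPM in WT. Aspm, a protein of the spindle poles, was at 52.3 against 3.34 CPM in DKO, 44.9 against 6.92 CPM in KO, and 72.4 against 3.56 CPM in WT. Cdc20, the activator of the anaphase-promoting complex, was at 284 against 28.3 CPM in DKO, 179.9 against 46.4 CPM in KO, and 241 against 18.8 CPM in WT. At least 1 UMI of Aspm was seen in 51.7% of DKO, 59.9% of KO and 57.3% of WT mitotic cells, while Cenpf was seen in 95.9%, 96.5% and 94.6% of those cells. Aspm was thus without a UMI in many members that carried Cenpf or other rule genes.

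Hmmr, a spindle assembly factor, Cdkn3, a phosphatase of CDK1, and Kif2c, a kinesin that takes microtubules apart, completed the rule. Hmmr was at 148 against 10.9 CPM in DKO, 115 against 20.2 CPM in KO, and 144 against 8.41 CPM in WT. Cdkn3 was at 77.2 against 4.03 CPM in DKO, 52.6 against 13.4 CPM in KO, and 77.8 against 3.72 CPM in WT, and Kif2c at 59.3 against 6.18 CPM in DKO, 40.5 against 10.05 CPM in KO, and 50.98 against 4.70 CPM in WT. All 3 were lower in mitotic cells of KO than in those of DKO and WT.

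Promoters of some of these genes are shown because 2 short elements recur in them, and each promoter printed holds both. One is the CHR element, TTTGAA or less often the variant TTTAAA, through which DREAM, B-MYB and FOXM1 are known to act, and the other is the CCAAT box bound by NF-Y. Each sequence runs 5′ to 3′ on the coding strand from 150 bases before to 30 bases from the annotated start, from RefSeq on GRCm38.p6, and capitals mark a CHR element or a CCAAT box on either strand. The windows are chr11:40733408-40733587 (minus strand) for Hmmr, chr1:139454623-139454802 (plus) for Aspm, chr9:70421525-70421704 (minus) for Ccnb2, chr4:118437314-118437493 (minus) for Cdc20 and chr2:164769779-164769958 (plus) for Ube2c.
Hmmr: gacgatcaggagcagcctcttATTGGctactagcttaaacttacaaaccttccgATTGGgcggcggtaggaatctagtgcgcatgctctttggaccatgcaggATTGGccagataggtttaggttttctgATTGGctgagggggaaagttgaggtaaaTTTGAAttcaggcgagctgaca
Aspm: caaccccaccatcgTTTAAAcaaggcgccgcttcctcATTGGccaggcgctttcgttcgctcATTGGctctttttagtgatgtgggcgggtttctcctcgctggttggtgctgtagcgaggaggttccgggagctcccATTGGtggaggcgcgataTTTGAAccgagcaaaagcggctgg
Ccnb2: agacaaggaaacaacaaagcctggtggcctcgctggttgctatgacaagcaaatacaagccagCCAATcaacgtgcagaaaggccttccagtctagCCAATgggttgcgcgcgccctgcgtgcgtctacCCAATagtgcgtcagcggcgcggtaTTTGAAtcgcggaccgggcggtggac
Cdc20: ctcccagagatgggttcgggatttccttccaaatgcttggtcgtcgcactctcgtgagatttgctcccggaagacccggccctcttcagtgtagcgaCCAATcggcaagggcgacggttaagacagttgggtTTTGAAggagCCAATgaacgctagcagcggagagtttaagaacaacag
Ube2c: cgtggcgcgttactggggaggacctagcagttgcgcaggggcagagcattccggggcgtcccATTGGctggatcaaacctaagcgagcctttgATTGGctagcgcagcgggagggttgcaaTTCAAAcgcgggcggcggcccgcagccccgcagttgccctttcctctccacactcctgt

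In Hmmr, Aspm and Ccnb2 a TTTGAA lay within 10 bases downstream of the start, with CCAAT boxes upstream of it. TTTGAA, searched on both strands over 300 bases (250 before and 50 after the start), was found in 8 of the 10 rule promoters (80%). It was found in 55 of 86 promoters of the mitosis genes listed below, without the rule genes (64.0%), and in 3 of 24 promoters of replication licensing genes (12.5%). Of all 32851 promoters in the table, 17.9% held it. CCAAT was found in 80%, 68.6% and 70.8% of the rule, mitosis and licensing promoters and in 37.4% of all. The E2F-type element GGCGGGAA was found in 0% of rule, 2.33% of mitosis and 20.8% of licensing promoters, against 2.19% of all. The promoters matched 10 of 10 rule genes, 77 of 105 mitosis genes and 21 of 25 licensing genes. The Kif2c window (chr4:117178743-117178922, minus strand) lay inside the annotated gene (chr4:117159639-117182639). Its TTTGAA, which was counted, is thus not at the outer start of that gene. Each element was counted on its own, so matches of different elements could overlap, and a match is a description of these letters only.

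Outside the rule, few genes differed by as much as 1.5-fold at a mean of at least 20 CPM. In DKO 214 of 5346 genes were higher in mitotic cells (4%) and 131 lower (2.45%). In KO 180 of 4977 were higher (3.62%) and 59 lower (1.19%), and in WT 229 of 5236 were higher (4.37%) and 171 lower (3.27%). In all 3 libraries 109 genes were higher and 23 lower of 4558. Of the 109, 66 stood on 1 of 8 lists of mitosis genes and 39 on none of the 35 lists. The mitosis lists hold 105 genes outside the rule, and how many of these were among the 4558 is not given here. The KO counts hung on the score, since at a minimum of 20 they were 523 higher and 315 lower.

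The genes highest in mitotic cells were regulators and parts of the spindle and centromere. Plk1, the Polo-like kinase that drives mitotic entry and spindle assembly, was at 85.6 against 6.68 CPM in DKO, 73.7 against 16.4 CPM in KO, and 72.5 against 5.33 CPM in WT. It was higher by 12.8-fold (11.7 to 14.1) in DKO, 4.50-fold (4.18 to 4.84) in KO and 13.6-fold (12.1 to 15.3) in WT. Cdc25b, the phosphatase that activates CDK1, was at 51.6 against 3.83 CPM in DKO, 44.2 against 6.22 CPM in KO, and 50.3 against 4.19 CPM in WT, and Aurka, the Aurora kinase of the spindle poles, was at 88.5 against 9.39 CPM in DKO, 82.6 against 23.2 CPM in KO, and 92.6 against 9.28 CPM in WT. The KO values for Plk1 and Aurka in the rest lay above those of DKO and WT.

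Cenpa, the histone variant that marks centromeres, reached 500.0 against 42.2 CPM in DKO, 388 against 93.99 CPM in KO, and 486 against 35.8 CPM in WT. Cenpe, a kinetochore motor, was at 161 against 24.9 CPM in DKO, 121 against 33.1 CPM in KO, and 173 against 24.7 CPM in WT. Tpx2, which activates Aurora A on the spindle, was at 193 against 29.2 CPM in DKO, 142 against 41.7 CPM in KO, and 186 against 24.6 CPM in WT, and Prc1, which bundles the midzone microtubules of anaphase, was at 177 against 24.9 CPM in DKO, 137 against 34.2 CPM in KO, and 179 against 22.6 CPM in WT. Fam64a, Psrc1 and Sapcd2 were also among the 10 highest, with levels in mitotic cells from 37.2 CPM (Psrc1 in KO) to 143 CPM (Fam64a in WT). The levels were spread over many cells, since the 10 cells with the most UMIs of a gene held at most 8.23% of a library's mitotic UMIs of that gene, a value reached by Cdc25b in WT.

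**Figure D2:**
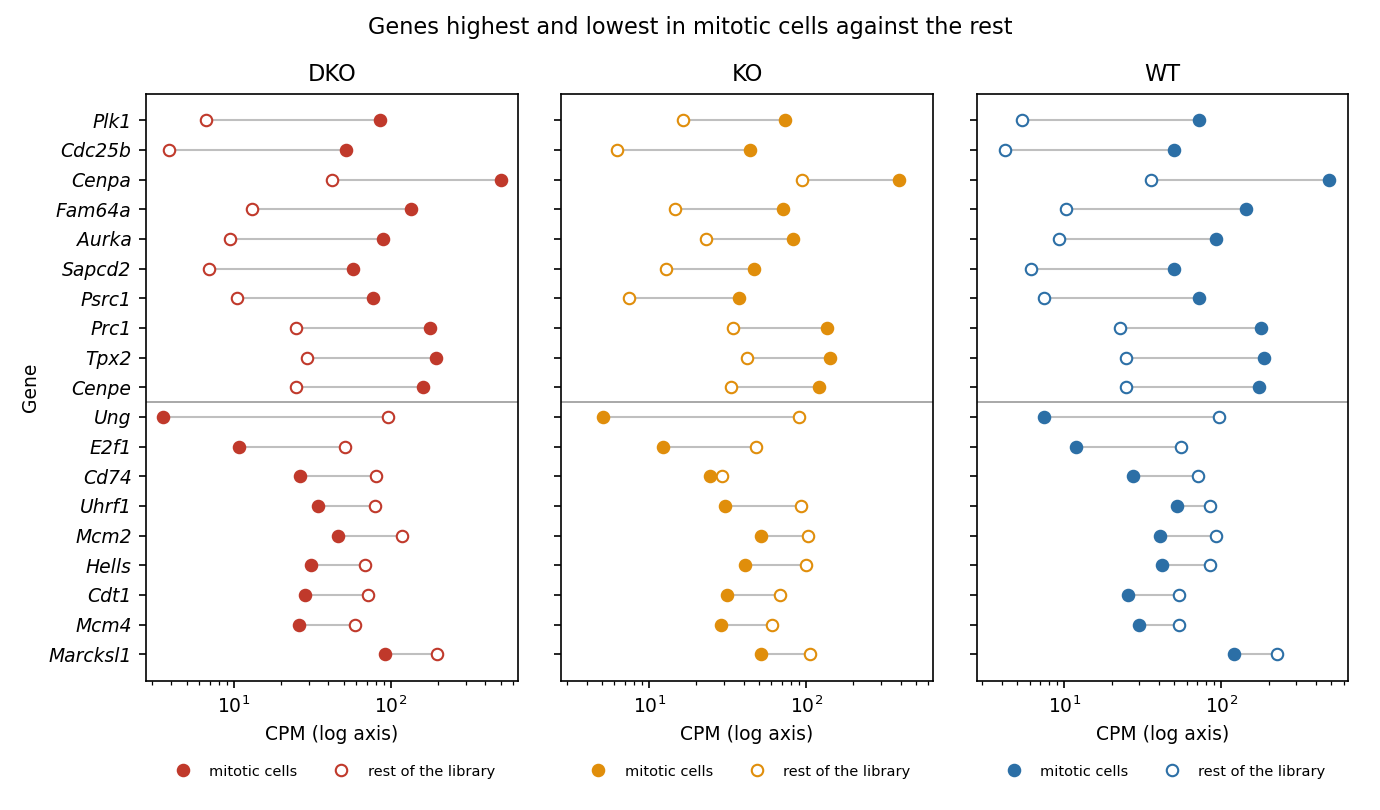
Summed UMIs per 1000000 (CPM, log axis) of the highest and the lowest named genes by the median ratio over the 3 libraries, with filled points for mitotic cells and open points for the rest, DKO left, KO centre, WT right. Gaps for the highest genes were narrower in KO, as for Plk1 at 73.7 against 16.4 CPM in KO.

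By list, most genes of 6 of the 8 mitosis lists were higher, and the anaphase-promoting complex and the DREAM and FOXM1 regulators were mostly within 1.5-fold. Lists here hold genes measured at a mean of at least 5 CPM, at which 4.06% of DKO, 4.3% of KO and 4.83% of WT genes were higher in mitotic cells and 4.2%, 1.86% and 5.82% lower. Of the 17 mitotic kinases and cyclins, 15 were higher in DKO, 14 in KO and 15 in WT, with median log2 ratios of 2.02, 1.19 and 2.38, where the median of all genes was 0.01 in DKO, 0.04 in KO and -0.01 in WT. Cdk1, the kinase of mitotic entry, was at 296 against 85.7 CPM in DKO, 235 against 98.6 CPM in KO, and 277 against 63.1 CPM in WT. Ccna2, which encodes cyclin A2, was at 169.6 against 35.04 CPM in DKO, 157 against 68.9 CPM in KO, and 175 against 30.4 CPM in WT. Both were higher by over 2-fold in each library. These genes peak in the same phase as the rule genes, so the choice of the cells favours them.

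Of the 12 chromosomal passenger and spindle checkpoint genes, 12 were higher in DKO, 10 in KO and 12 in WT (median log2 2.06, 1.22 and 2.37). Birc5, the survivin subunit of the passenger complex, was at 461 against 98.9 CPM in DKO, 422 against 186 CPM in KO, and 463 against 89.99 CPM in WT. Bub1b, the checkpoint kinase-like protein BubR1, was at 85.5 against 16.7 CPM in DKO, 60.6 against 22.4 CPM in KO, and 79.3 against 14.6 CPM in WT. Kinetochore and centromere genes were higher for 14 of 16 in DKO, 14 in KO and 16 in WT (1.82, 1.14 and 2.11). Spindle motors and microtubule factors were higher for 24 of 25 in DKO, 23 in KO and 24 in WT (2.24, 1.47 and 2.58). In every one of these lists the KO median was the lowest.

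Of 19 condensin and chromosome structure genes 17 were higher in DKO, 12 in KO and 17 in WT, with medians of 1.37, 0.84 and 1.59. Mki67, the coat protein of mitotic chromosomes, was at 345 against 77.8 CPM in DKO, 287 against 102 CPM in KO, and 373 against 71.2 CPM in WT. Top2a, the topoisomerase that untangles sister chromatids, was at 616 against 192 CPM in DKO, 467 against 222 CPM in KO, and 663 against 186 CPM in WT. Of the cytokinesis genes 8 of 9 were higher in DKO, 8 of 9 in KO and 9 of 10 in WT. Ect2, which switches on RhoA at the cleavage furrow, was at 33.8 against 8.61 CPM in DKO, 30.001 against 11.2 CPM in KO, and 40.3 against 5.88 CPM in WT.

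Subunits of the anaphase-promoting complex itself were near level. Of 17 genes 4 were higher in DKO, 2 in KO and 4 in WT, with medians of 0.35, 0.18 and 0.29. Cdc27, at 25.4 against 16.3 CPM in DKO, 25.7 against 18.6 CPM in KO, and 30.7 against 16.1 CPM in WT, was the subunit past 1.5-fold, in DKO and WT, and the others that were higher are regulators or partners. Fzr1, the G1 activator Cdh1, was at 92.7 against 27.5 CPM in DKO, 74.1 against 25.4 CPM in KO, and 85.8 against 24.3 CPM in WT, and Ube2s, the chain-extending E2 enzyme, was at 769 against 311 CPM in DKO, 749 against 406 CPM in KO, and 857 against 304 CPM in WT. Fbxo5, the inhibitor Emi1, was at 79.2 against 36.4 CPM in DKO, 52.2 against 43.3 CPM in KO, and 92.7 against 34.9 CPM in WT, which passed 1.5-fold in DKO and WT. Of the DREAM and FOXM1 regulators 4 of 14 were higher in DKO, 1 of 14 in KO and 4 of 15 in WT, with medians of 0.25, 0.17 and 0.24. Foxm1 was higher by 4.52-fold (4.03 to 5.06) in DKO, 2.53-fold (2.25 to 2.84) in KO and 4.73-fold (4.15 to 5.39) in WT. Mybl2, which encodes B-MYB, was at 16.98 against 25.9 CPM in DKO, 22.6 against 38.05 CPM in KO, and 13.2 against 19.6 CPM in WT and so was lower in mitotic cells in all 3 libraries, past 1.5-fold in DKO and KO.

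Of the 23 genes lower in all 3 libraries, 13 stood on the lists of replication (25 genes), nucleotide synthesis (10) and G1 (13). Ung, the uracil glycosylase that repairs uracil in new DNA, showed the largest gap, at 3.53 against 95.7 CPM in DKO, 5.07 against 90.5 CPM in KO, and 7.43 against 96.6 CPM in WT. Its level was lower in mitotic cells by 27.1-fold (21.96 to 33.8) in DKO, 17.8-fold (14.9 to 21.5) in KO and 12.999-fold (10.7 to 15.9) in WT. E2f1, a driver of S phase entry, was at 10.8 against 50.8 CPM in DKO, 12.3 against 47.7 CPM in KO, and 11.9 against 55.7 CPM in WT. Mcm2, a subunit of the replicative helicase, was at 46.2 against 118 CPM in DKO, 51.6 against 102 CPM in KO, and 40.95 against 91.9 CPM in WT, and Cdt1, the licensing factor that loads it, was at 28.2 against 71.7 CPM in DKO, 31.3 against 68.4 CPM in KO, and 25.4 against 53.9 CPM in WT.

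Of 25 replication licensing and fork genes, 15 were lower in DKO, 16 in KO and 12 in WT, with none higher (median log2 -0.83, -0.80 and -0.49). Uhrf1, which carries DNA methylation through replication, was at 34.1 against 79.2 CPM in DKO, 30.3 against 92.1 CPM in KO, and 52.5 against 84.3 CPM in WT. With the cells at or above the mitotic median of the list left out of the rest, a step that by its making lowers the rest, the median turned to 1.14 in DKO, 0.89 in KO and 1.38 in WT.

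Among mitotic cells the licensing sum was lower at higher scores, while below the threshold it was highest at scores of 1 to 5, at 3082 CPM in DKO, 2526 in KO and 2603 in WT. It was 2022 CPM at scores of 10 to 20, 1460 at 20 to 30 and 1087 at 30 and over in DKO. In KO it was 1492, 1148 and 988 CPM, and in WT 1817, 1259 and 1054 CPM. Among cells in the top 10% of all cells for this list, 1.17% of 1281 in DKO were mitotic, 0 of 115 in KO (up to 3.16%) and 2.61% of 729 in WT.

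Of 13 G1 cyclins and G1-S control genes, 6 were lower in DKO, 5 in KO and 6 in WT, with none higher and medians of -0.58, -0.23 and -0.50. Ccne2, encoding cyclin E2, was at 2.29 against 12.4 CPM in DKO, 3.49 against 20.4 CPM in KO, and 4.98 against 17.8 CPM in WT, and Ccnd1, encoding cyclin D1, at 9.15 against 27.8 CPM in DKO, 13.5 against 22.2 CPM in KO, and 5.47 against 27.3 CPM in WT. Among CDK inhibitors the INK4 genes were higher: Cdkn2c, which encodes p18, was at 69.2 against 31.8 CPM in DKO, 40.8 against 18.2 CPM in KO, and 50.4 against 16.8 CPM in WT, and Cdkn2d, which encodes p19, at 82.3 against 37.9 CPM in DKO, 58.8 against 31.7 CPM in KO, and 70.7 against 27.97 CPM in WT. Ccng2, a cyclin linked to cell cycle arrest, was at 48.5 against 17.7 CPM in DKO, 17.3 against 7.37 CPM in KO, and 49.8 against 20.1 CPM in WT. Txnip, a gene of quiescent stem cells, was at 123 against 189 CPM in DKO, 41.2 against 43.7 CPM in KO, and 107 against 180.0 CPM in WT, lower past 1.5-fold in DKO and WT. Of 12, 10 and 12 measured genes on this list, 4 were higher in DKO, 3 in KO and 4 in WT.

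Some genes outside the lists, named after their values were seen, had known parts in chromosome cohesion and repair. Rad21, the cohesin subunit cut at anaphase, was at 119.5 against 44.8 CPM in DKO, 94.4 against 51.6 CPM in KO, and 131 against 49.4 CPM in WT. Esco2, which acetylates cohesin, was at 54.6 against 25.2 CPM in DKO, 54.4 against 32.7 CPM in KO, and 64.6 against 24.5 CPM in WT. The mismatch repair gene Msh6 was at 17.4 against 31.7 CPM in DKO, 16.4 against 30.5 CPM in KO, and 19.6 against 32.7 CPM in WT, and Lig1, the ligase of the lagging strand, at 96.4 against 192 CPM in DKO, 99.4 against 156 CPM in KO, and 96.8 against 161 CPM in WT.

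Some chromatin genes were higher in mitotic cells. Of 16 histone and chromatin exchange genes, 4 were higher in DKO, 2 in KO and 6 in WT. H2afv, a histone variant of the H2A.Z kind, was at 830.5 against 429.8 CPM in DKO, 479 against 315 CPM in KO, and 940.3 against 451 CPM in WT. Hist1h4i, a histone H4 gene, was at 96.7 against 43.1 CPM in DKO, 61.2 against 49.4 CPM in KO, and 113 against 50.7 CPM in WT, and Hmgb3, a DNA-bending chromatin protein, at 419 against 238 CPM in DKO, 323 against 192 CPM in KO, and 298 against 153 CPM in WT. Histone genes of near-identical sequence can share reads, so the H4 value is uncertain as to the gene.

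The machinery of growth was level. All 24 cytosolic ribosome genes, all 24 proteasome genes and all 27 oxidative phosphorylation genes stayed within 1.5-fold in each library, with list medians between -0.11 and 0.16. Glycolysis genes had medians of -0.24 in DKO, -0.22 in KO and -0.30 in WT. Aldoa, an aldolase, was at 161 against 327 CPM in DKO, 298 against 377 CPM in KO, and 98.1 against 240.4 CPM in WT, lower past 1.5-fold in DKO and WT, and Pfkl, a phosphofructokinase, was at 46.6 against 73.97 CPM in DKO, 37.1 against 45.4 CPM in KO, and 30.01 against 48.1 CPM in WT. Nolc1, a nucleolar chaperone, was at 81.97 against 128 CPM in DKO, 138 against 182 CPM in KO, and 66.8 against 100.2 CPM in WT.

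Immediate early genes, the quickly induced targets of stress and growth signals, were lower in mitotic cells of WT. There 14 of 19 were lower (median log2 -0.79), against 3 of 19 in DKO (-0.26) and 0 of 17 in KO (0.01), and their sum was 1861 against 3228 CPM in WT. Ier2 was at 106 against 171 CPM in DKO, 60.5 against 70.4 CPM in KO, and 116 against 246 CPM in WT, Junb at 62.5 against 99.95 CPM in DKO, 51.6 against 51.9 CPM in KO, and 77.3 against 175 CPM in WT and Zfp36, which destabilises cytokine mRNAs, at 40.7 against 60.4 CPM in DKO, 16.9 against 22.9 CPM in KO, and 75.2 against 163 CPM in WT. Against rest cells of like depth the WT median was -0.36.

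MHC class II genes, which present peptides to T cells, were lower for 2 of 8 in DKO, 0 of 8 in KO and 3 of 8 in WT. Cd74, the invariant chain, was at 26.3 against 80.7 CPM in DKO, 24.5 against 29.1 CPM in KO, and 27.3 against 70.5 CPM in WT. H2-Eb1 was at 26.4 against 44.4 CPM in DKO, 29.5 against 25.4 CPM in KO, and 11.6 against 21.4 CPM in WT. The difference between the libraries was not tested. Interferon-stimulated genes had medians of -0.10 in DKO, 0.31 in KO (-0.14 without the cells high for erythroid, neutrophil or B lineage genes) and -0.19 in WT, with 1 of 25, 3 of 24 and 1 of 24 higher. Zbp1, a sensor of Z-form nucleic acid, was at 7.27 against 10.99 CPM in DKO, 36.2 against 26.3 CPM in KO, and 3.44 against 7.39 CPM in WT, higher in mitotic cells of KO and lower in those of DKO and WT. Ifi27l2a was at 35.8 against 19.1 CPM in DKO, 28.3 against 27.4 CPM in KO, and 61.5 against 28.1 CPM in WT.

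**Figure D3:**
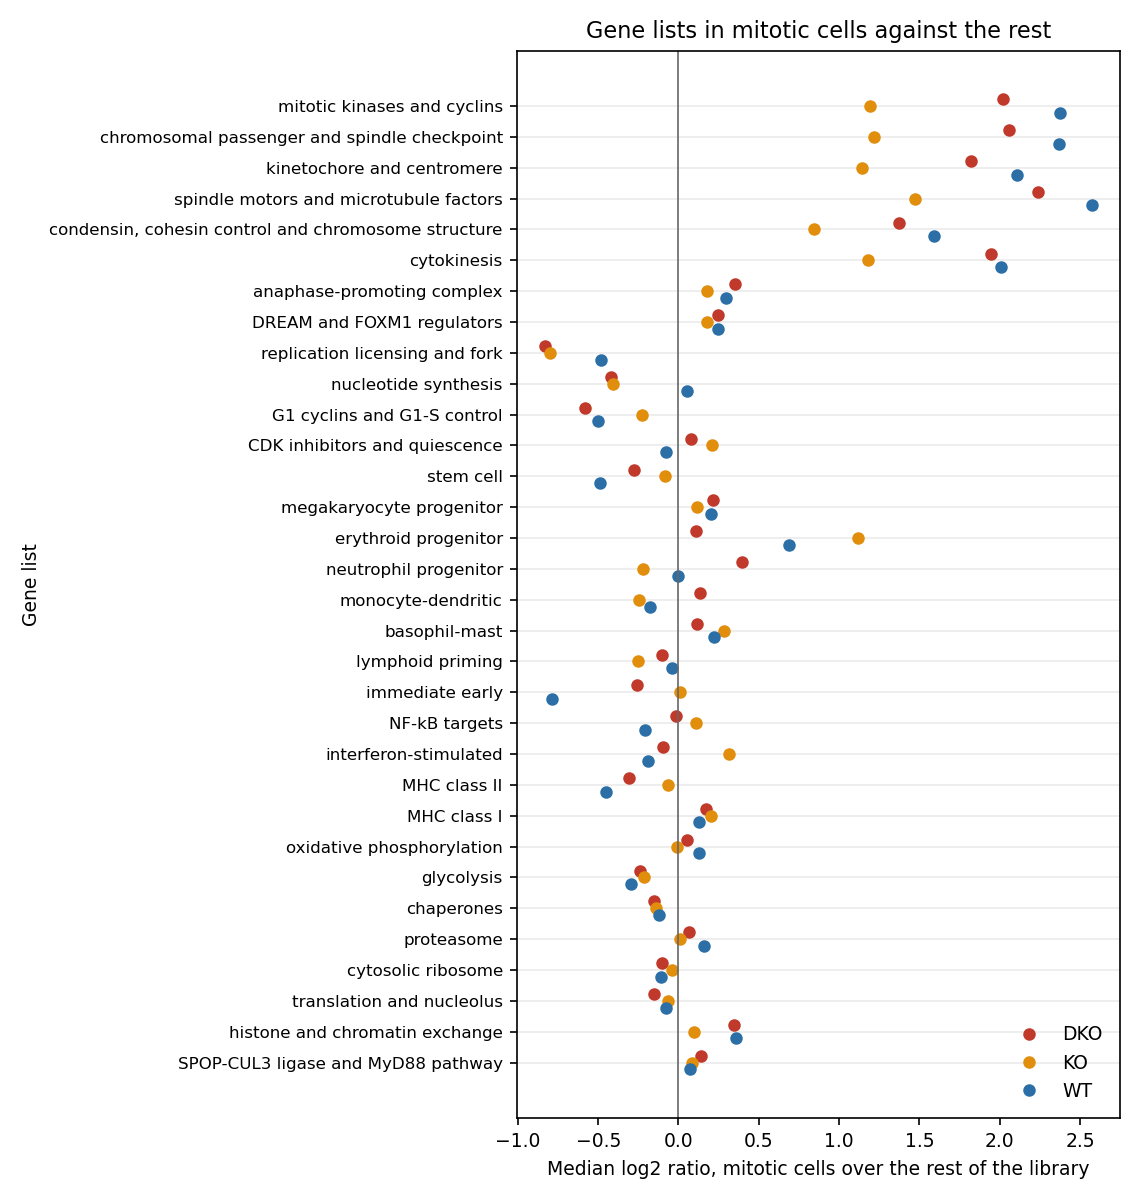
Median log2 ratio of mitotic cells over the rest of the library (x) for each gene list (y), for DKO, KO and WT. The rule genes and the lists with only 1 measured gene in KO (B lineage, T and NK, macrophage and stroma) are not drawn. In WT the B lineage list had 12 measured genes and a median of 0.76. Mitosis lists lie on the right, with KO lowest in each of the first 6, and licensing on the left at -0.83, -0.80 and -0.49.

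Among lineage genes, few from cell types outside the gate were measured. Lists of T and NK, and of macrophage and stromal genes had only 1 or 2 measured members, with sums from 28.0 to 438 CPM in mitotic cells and from 33.9 to 421 CPM in the rest. The only measured gene of the T and NK list was Nkg7, which is on the neutrophil list too. Kit and Cd34, genes of the progenitor state, were nearly level, Kit at 65.9 against 65.9 CPM in DKO, 45.8 against 40.1 CPM in KO, and 86.05 against 96.6 CPM in WT and Cd34 at 341 against 365 CPM in DKO, 153 against 159 CPM in KO, and 309 against 339 CPM in WT. Ly6a, which encodes the Sca-1 of the LSK gate, was at 51.1 against 101 CPM in DKO, 65.9 against 91.1 CPM in KO, and 49.6 against 98.5 CPM in WT. Of 17 measured stem cell genes, 2 were lower in DKO, 0 in KO and 8 in WT, with medians of -0.28, -0.09 and -0.49. Against rest cells of like depth the medians were -0.03 in DKO, -0.13 in KO and -0.23 in WT, so little of the DKO difference remained. Procr, a receptor on stem cells, was at 14.5 against 21.3 CPM in DKO, 4.74 against 6.58 CPM in KO, and 11.99 against 27.03 CPM in WT, and Mycn at 19.5 against 28.7 CPM in DKO, 9.10 against 12.2 CPM in KO, and 17.7 against 33.8 CPM in WT.

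Cells rich in stem cell transcripts held a smaller share of mitotic cells than their library. Among cells in the top 10% of all cells for the stem cell list, 3.44% were mitotic in DKO (16 of 465, 1.98 to 5.53), 13.2% in KO (112 of 847, 11.01 to 15.7) and 2.71% in WT (22 of 813, 1.70 to 4.07). Those shares stood beside 17.8%, 20.8% and 12.3% of all cells of DKO, KO and WT. In the top 5% of all cells they were 1.01% in DKO, 8.80% in KO and 1.66% in WT. Cells of the top 10% range were shallow, with a median of 8197 UMIs in DKO, 12809 in KO and 7051 in WT. The medians of all cells were 12404.5, 17319 and 9245 UMIs in DKO, KO and WT. Such a range is a slice of a score and not a cell type, and a cell can be in several. The list holds Ifitm1 and Ifitm3, both highest in KO, and their part in the KO range was not tested. Ifitm1 was at 609 CPM in DKO, 1743 CPM in KO and 851 CPM in WT in the rest, and Ifitm3, which is on the interferon list too, at 604 CPM in DKO, 1011 CPM in KO and 569.9 CPM in WT.

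Erythroid genes were higher in mitotic cells of KO. Of 14 measured genes 13 were higher there (median log2 1.12), with sums of 1797 against 953 CPM. In DKO 1 of 8 was higher, with sums of 796 against 733 CPM, and in WT 4 of 7, with 664 against 560 CPM. Klf1, the master activator of erythroid genes, was at 12.8 against 8.83 CPM in DKO, 78.6 against 36.2 CPM in KO, and 7.85 against 3.86 CPM in WT. Gata1, the partner factor, was at 23.9 against 12.6 CPM in DKO, 46.8 against 21.9 CPM in KO, and 12.6 against 4.93 CPM in WT. Car1, a carbonic anhydrase, was at 75.6 against 82.5 CPM in DKO, 486 against 259 CPM in KO, and 31.2 against 16.5 CPM in WT.

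Klf1 had at least 1 UMI in 37.9% of KO mitotic cells, against 22.5% of the rest of KO and 4.61% of KO cells high for neutrophil genes, which should lack it and were deeper (median 32176 UMIs, against 20666 in mitotic cells). Against rest cells of like depth the erythroid median was 0.32 in DKO, 0.68 in KO and 0.69 in WT, so KO did not stand above WT there. With the cells high for erythroid, neutrophil or B lineage genes left out, the KO median was 0.18 and the WT median 0.10. That step drops cells chosen by these same lists, so by its making it shrinks differences in them. Car1 rested on few cells in WT. The 10 cells with the most UMIs held 48.01% of the Car1 UMIs of DKO mitotic cells, 10.7% in KO and 97.8% in WT.

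A globin, Hbb-bs, chosen after its values were seen, was at 66.9 against 3.36 CPM in DKO, 450.4 against 104 CPM in KO, and 227 against 6.16 CPM in WT. In DKO and WT only 2 mitotic cells each had 10 or more UMIs of it, and in KO 119 had. The 10 cells with the most UMIs held 96.6%, 34.9% and 98.6% of its UMIs in mitotic cells of DKO, KO and WT. Reads of Hbb-bs can be shared with its near-identical sister Hbb-bt, so the value is uncertain as to the gene.

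Against all other cells of the library, neutrophil genes had no common direction. Their sum was 4727 against 4135 CPM in DKO, 10743 against 12749 CPM in KO and 3302 against 3283 CPM in WT. Mpo, the peroxidase of primary granules, was at 446 against 338 CPM in DKO, 954 against 1141 CPM in KO, and 208 against 184 CPM in WT. Elane, the granule elastase, was at 328 against 175 CPM in DKO, 1178 against 1334 CPM in KO, and 42.4 against 86.3 CPM in WT. The order of mitotic cells and rest was opposite in DKO and KO for both genes, and 10 cells held 80.7% of the Elane UMIs of DKO mitotic cells. Elane was seen in 57.5% of KO mitotic cells and in 34.95% of the other KO cells high for erythroid genes, at medians of 20666 and 13282 UMIs, so part of that share can be free RNA. The list median against all other cells was 0.40 in DKO, -0.22 in KO and -0.002 in WT. Against other cells of like depth it was 0.56 in DKO, 0.65 in KO and 0.13 in WT, above 0 in each library.

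Along the KO score the neutrophil and erythroid lists ran in opposite ways. In KO mitotic cells the neutrophil sum was 13565 CPM at scores of 10 to 20, 5328 at 20 to 30 and 3102 at 30 and over. The erythroid sum was 1394, 2325 and 3507 CPM over the same steps. In DKO and WT neither list had such a run: the erythroid sum stayed between 723 and 859 CPM in DKO and between 636 and 723 CPM in WT. The KO neutrophil median against the rest was accordingly -1.89 at a score minimum of 20.

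**Figure D4:**
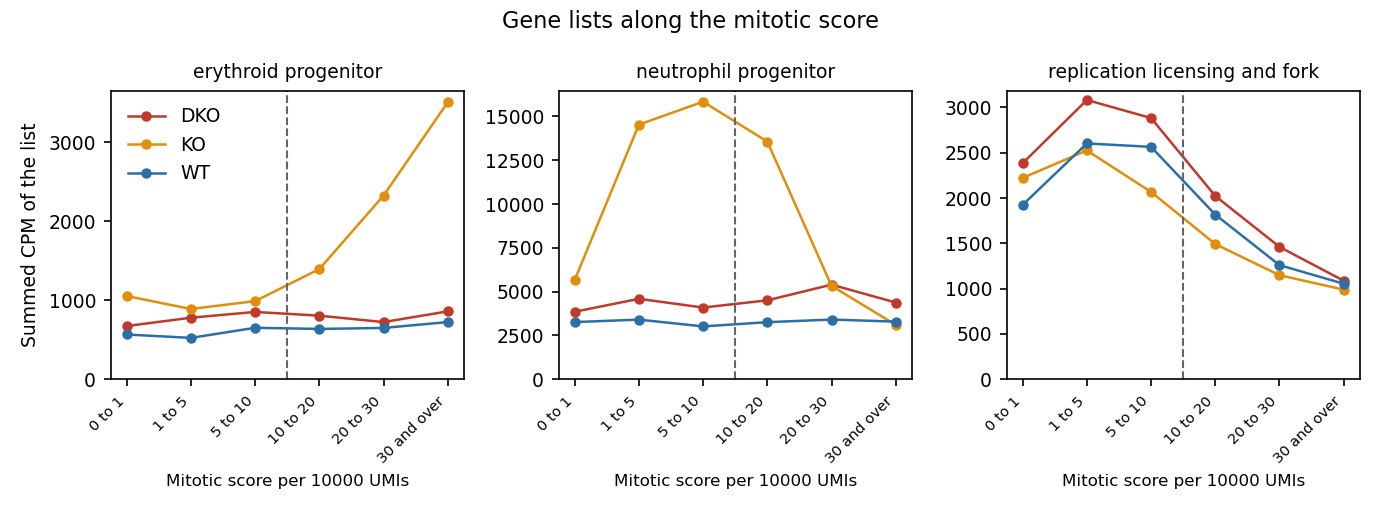
Summed CPM (y) of the erythroid, neutrophil and replication licensing lists by score (x) in DKO, KO and WT; the dashed line is the threshold of 10. In KO the erythroid sum reached 3507 CPM and the neutrophil sum 3102 CPM at scores of 30 and over, while both lists were near level in DKO and WT.

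B lineage genes were seen mostly in WT, and there they were higher in mitotic cells. In WT 8 of 12 were higher (median log2 0.76), with sums of 1453 against 867 CPM. The WT median was 0.11 without the lineage-high cells, which this list helped to choose. The sums were 72.3 against 63.7 CPM in DKO and 47.6 against 43.8 CPM in KO. Igll1, the surrogate light chain of pre-B cells, was at 3.33 against 1.38 CPM in DKO, 1.83 against 1.09 CPM in KO, and 222 against 109 CPM in WT. Ebf1, the B cell commitment factor, was at 4.54 against 1.39 CPM in DKO, 0.956 against 1.46 CPM in KO, and 245 against 128 CPM in WT. Cd79a was seen in 17% of WT mitotic cells, in 10.004% of the rest and in 2.74% of WT cells high for megakaryocyte genes. Their medians were 14278.5, 8913 and 9148 UMIs, so depth differed as well. Against rest cells of like depth the WT list median was 0.85. Of WT cells in the top 10% for the B lineage list 12.8% (11.3 to 14.5) were mitotic, near the 12.3% of the library. In the top 5% the share was 16.5%. Dntt, which marks lymphoid priming, was at 109.6 against 126 CPM in DKO, 36.1 against 61.8 CPM in KO, and 525 against 482 CPM in WT, and Ltb at 20.995 against 42.02 CPM in DKO, 5.48 against 10.8 CPM in KO, and 46.6 against 101 CPM in WT.

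Megakaryocyte genes were near level between mitotic cells and the rest, with medians of 0.22 in DKO, 0.11 in KO and 0.20 in WT. Pf4, a platelet chemokine, was at 227 against 136 CPM in DKO, 183 against 179 CPM in KO, and 59.7 against 46.2 CPM in WT. Gp1bb, a subunit of the von Willebrand factor receptor, was at 21.1 against 12.4 CPM in DKO, 36.3 against 24.7 CPM in KO, and 7.92 against 4.40 CPM in WT.

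By lineage range, mitotic cells made up the largest share of the erythroid range in KO. It was 24.1% in DKO (141 of 584), 31.6% in KO (342 of 1083) and 17.2% in WT (79 of 458). The megakaryocyte range had 22.8%, 24.2% and 16.9% in DKO, KO and WT, and the neutrophil range 23.2%, 17.4% and 17.0%. For DKO and WT the intervals of these 3 ranges overlap, and in KO those of the erythroid (28.8 to 34.4) and neutrophil (15.6 to 19.4) ranges do not. With cells thinned to 5000 UMIs the KO neutrophil range held 21.03% mitotic cells, and with the top 5% of cells the WT megakaryocyte range held 21.8%. At scores of at least 20, 14.9% of the KO erythroid range and 1.55% of the KO neutrophil range remained.

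Among KO mitotic cells 33.4% were high for erythroid genes, against 19.0% of the rest, and 26.3% were high for neutrophil genes, against 32.9% of the rest. In none of the ranges were 52.9% of DKO, 18.2% of KO and 46.7% of WT mitotic cells, against 55.5%, 19.2% and 46.0% of the rest of DKO, KO and WT. Cells high for interferon-stimulated genes were mitotic in 10.2% of DKO, 20.2% of KO and 5.19% of WT cases. Cells high for immediate early genes were mitotic in 12.7% of DKO and 6.19% of WT cases, and KO had only 48 such cells.

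**Figure D5:**
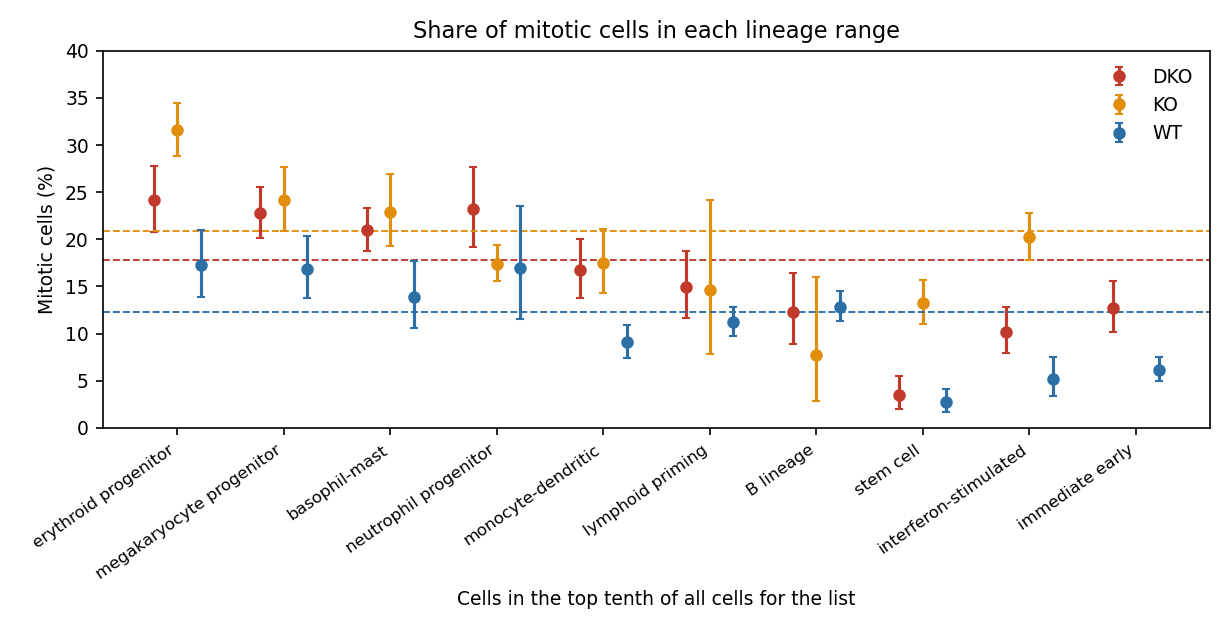
Percentage of mitotic cells (y, with exact 95% counting intervals) among cells in the top 10% of all cells for each gene list (x), in DKO, KO and WT; dashed lines are the shares of all cells of each library, 17.8%, 20.8% and 12.3%. Stem cell ranges lie at 3.44% in DKO and 2.71% in WT, and the KO erythroid range lies highest (31.6%).

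The design compares KO with WT for the loss of SPOP and DKO with KO for the further loss of MyD88. Comparisons share libraries, so their values are set side by side only. In mitotic cells 504 of 5225 genes were at least 1.5-fold higher in KO than in WT (9.65%) and 566 lower (10.8%). Between DKO and KO 677 of 5293 were higher in DKO (12.8%) and 342 lower (6.46%). Between DKO and WT 202 of 5324 were higher in DKO (3.79%) and 105 lower (1.97%). In the rest of the cells the shares higher and lower were 9.68% and 12.9% for KO against WT, 14% and 6.52% for DKO against KO, and 2.44% and 1.93% for DKO against WT.

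These counts changed with the scaling and with the removal of lineage-high cells. Under TMM scaling the median of all genes moved to 0.10, -0.08 and 0.03 for KO against WT, DKO against KO and DKO against WT, where it was -0.00, 0.08 and 0.10 under library totals. The counts were then 714 higher and 431 lower for KO against WT, 385 and 643 for DKO against KO, and 129 and 141 for DKO against WT. With cells high for erythroid, neutrophil or B lineage genes left out, KO against WT gave 172 higher and 218 lower genes, and DKO against KO 340 and 74. Mitotic cells high for erythroid genes numbered 141 in DKO, 342 in KO and 79 in WT. For neutrophil genes they numbered 95, 270 and 28, and for B lineage genes 39, 6 and 222. The removal thus also changed cell numbers unequally and drops cells chosen by these lists, and the cause of the change in counts was not tested.

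The 8 lists of mitosis genes had lower medians in mitotic cells of KO than in those of WT. In the rest the medians were higher in KO, except for the DREAM and FOXM1 regulators at -0.01. At a mean of 5 CPM, 10.1% of genes were higher in KO and 14.8% lower in mitotic cells, and 8.38% and 18.5% in the rest. Mitotic kinases and cyclins had a median log2 of -0.24 in mitotic cells, with 0 of 17 higher and 4 lower, and of 0.65 in the rest, with 10 of 16 higher. Spindle motors had -0.47 in mitotic cells and 0.59 in the rest. Plk1 was at 73.7 CPM in KO, against 72.5 CPM in WT in mitotic cells, and at 16.4 CPM in KO, against 5.33 CPM in WT in the rest. Both medians kept their sign in mitotic cells under TMM scaling, at -0.14 and -0.37. The lower median score of KO members moves with these values, and its part was not tested.

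Between DKO and KO the kinase and spindle medians had the other sign, where 16.5% of genes were higher in DKO and 7.57% lower in mitotic cells, and 18.9% and 6.63% in the rest. Mitotic kinases had a median of 0.27 in mitotic cells and -0.48 in the rest, and spindle motors 0.48 and -0.20. Between DKO and WT, where 5.38% of genes were higher in DKO and 3.87% lower in mitotic cells, and 3.53% and 3.58% in the rest, none of the 17 kinase, 12 passenger, 16 kinetochore or 26 spindle genes passed 1.5-fold in mitotic cells. Their medians lay between 0.04 and 0.08, and under TMM scaling those of the kinase (-0.03), kinetochore (-0.03) and spindle (-0.02) lists turned below 0 while that of the passenger list (0.02) did not. Cdk1 was at 296 CPM in DKO, 235 CPM in KO and 277 CPM in WT in mitotic cells.

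Erythroid and granule genes led the list of genes higher in mitotic cells of KO than of WT. Tspo2, an erythroid cholesterol-binding protein, was at 100.3 CPM in KO, against 1.68 CPM in WT, 59.6-fold (39.9 to 93.2) higher, and 34.6-fold higher in the rest. Hp, haptoglobin, was 43.7-fold (32.2 to 60.7) higher. Elane was at 1178 CPM in KO, against 42.4 CPM in WT. Trem3, Smim1 and Cited4 completed the 6 highest, at 48.1-fold, 27.7-fold and 25.9-fold. Of 14 measured erythroid genes 13 were higher in KO, and of 13 neutrophil genes 13. In the rest 11 of 12 and 11 of 13 were higher, with medians of 2.87 and 3.29. In mitotic cells the medians of the 2 lists were 3.16 and 2.86. They were 1.34 and 0.78 once cells high for erythroid, neutrophil or B lineage genes, chosen by these same lists, were left out.

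B lineage genes led those lower in KO than in WT. Vpreb3, a partner of the surrogate light chain, was at 0.249 CPM in KO, against 175 CPM in WT, 702-fold (322 to 1914) lower. Ebf1 was at 0.956 CPM in KO, against 245 CPM in WT, 256-fold (170.4 to 405) lower. Cd79a, Igll1, Vpreb1 and Blnk were lower by 135-fold, 121-fold, 65.3-fold and 54.9-fold. All 12 B lineage genes were lower in KO in mitotic cells (list median -6.82), and 11 of 11 in the rest (-6.64). Without the cells high for erythroid, neutrophil or B lineage genes the median in mitotic cells was -0.06. This list helped to choose the dropped cells, so that step by its making shrinks the difference.

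Immediate early genes were lower in KO for 17 of 18, with a sum of 629 against 1861 CPM in mitotic cells. Fos, a subunit of AP-1, was at 65.5 CPM in KO, against 347 CPM in WT, 5.30-fold (5.01 to 5.61) lower, and 10.6-fold lower in the rest. Klf2, a factor of quiescent lymphoid and endothelial cells, was 11.6-fold (10.1 to 13.3) lower. Stem cell genes were lower for 12 of 17 and higher for 3, with a median of -1.01 that was -0.32 without the cells high for erythroid, neutrophil or B lineage genes. Their sum ran the other way, at 2956 CPM in KO, against 2092 CPM in WT. Interferon-stimulated genes were higher in KO for 14 of 24 and lower for 1, with a median of 0.72 in mitotic cells and 0.19 in the rest. Zbp1 was at 36.2 CPM in KO, against 3.44 CPM in WT and Iigp1, an immunity GTPase, at 28.5 CPM in KO, against 9.19 CPM in WT in mitotic cells. CDK inhibitor and quiescence genes were lower in KO for 8 of 11. In the rest immediate early genes were lower in KO for 19 of 19, stem cell genes for 12 of 17, and CDK inhibitor and quiescence genes for 9 of 12.

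Erythroid and neutrophil genes were lower in DKO than in KO, both in mitotic cells and in the rest. Erythroid genes were lower in DKO for 13 of 14 in mitotic cells (median log2 -2.73) and for 12 of 13 in the rest (-2.04). Neutrophil genes were lower for 11 of 13 in mitotic cells (-1.55) and for 11 of 13 in the rest (-2.01). Cited4, Smim1, Cldn13, Tspo2 and Ermap were among the lowest in mitotic cells. Tspo2 was at 4.90 CPM in DKO, against 100.3 CPM in KO, 20.5-fold (17.1 to 24.8) lower. Without the cells high for erythroid, neutrophil or B lineage genes, chosen by these same lists, both medians in mitotic cells were -0.56. At scores of at least 20 the neutrophil median was -0.06.

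Apart from genes of the sex chromosomes, which were left out of the ranking, chemokines and early response genes were among the highest in DKO against KO. Ccl5 was at 46.8 CPM in DKO, against 1.29 CPM in KO, 36.3-fold (25.5 to 53.7) higher in mitotic cells and 6.82-fold higher in the rest. Klf2 was at 100.1 CPM in DKO, against 10.4 CPM in KO, 9.64-fold (8.46 to 11.02) higher. Ccl4, Stxbp4, Rgs1 and Fos were higher by 8.90-fold, 5.98-fold, 5.82-fold and 5.09-fold. Immediate early genes were higher in DKO for 15 of 18, stem cell genes for 12 of 17, and CDK inhibitor and quiescence genes for 9 of 11. In the rest they were higher for 16 of 18, 13 of 17 and 10 of 12. The stem cell median of 1.16 in mitotic cells was 0.44 without the cells high for erythroid, neutrophil or B lineage genes. Ccl5 was seen in 5.42% of DKO and 2.24% of KO mitotic cells, and in 4.04% of DKO cells high for megakaryocyte genes (median 11955.5 UMIs, against 17023.5 in DKO mitotic cells). The 10 cells with the most UMIs held 75.99% of its UMIs in DKO mitotic cells.

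Between DKO and WT the gaps in mitotic cells were fewer but several were large. Elane was at 328 CPM in DKO, against 42.4 CPM in WT, 7.73-fold (7.12 to 8.41) higher. It rested on few cells, since 37 DKO and 4 WT mitotic cells had 10 or more UMIs of it. In the rest Elane was at 175 CPM in DKO, against 86.3 CPM in WT. Ly6c2, a monocyte and granulocyte surface protein, was 8.87-fold (7.02 to 11.4) higher, and 10 cells held 86.1% of its UMIs in DKO. Ms4a3, Cpa3 and S100a8 were higher by 4.77-fold, 4.06-fold and 3.84-fold. In the rest Ms4a3 was at 72.4 CPM in DKO, against 19.6 CPM in WT, and Cpa3 at 65.6 against 13.5 CPM. S100a8 was not higher in DKO there, at 48.6 CPM, against 50.8 CPM in WT. Only 8 DKO and 0 WT mitotic cells had 10 or more UMIs of S100a8. Cpa3, a mast cell carboxypeptidase, was spread more widely, with 10 cells holding 14.5%. Megakaryocyte genes were higher in DKO for 10 of 13 (median log2 1.40), and for 9 of 12 in the rest (1.23). All 12 B lineage genes were lower in DKO than in WT in mitotic cells (-5.67), and 11 of 11 in the rest (-6.05). The B lineage median in mitotic cells was -0.46 without the cells high for erythroid, neutrophil or B lineage genes, which this list helped to choose.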

How the data were processed

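Droplet libraries of 3' ends (10x Chromium, version 2 chemistry per the labels) were made from bone marrow LSK cells, 1 library for each of 3 genotypes. The authors deposited raw UMI counts per gene and cell for all libraries in 1 table of 14721 genes. bcl2fastq, Cell Ranger, Seurat and the build mm10 are named in the submitters' processing notes, without versions.

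Counts were summed over mitotic cells and over the other cells of each library and scaled to 1000000 UMIs (CPM). A gene was called at 1.5-fold and a mean of at least 20 CPM, and lists at a mean of at least 5 CPM. Ratio intervals are exact conditional binomial and share intervals Clopper-Pearson, both at 95%. No test was made. Library totals were 109920419 UMIs in DKO, 101393024 in KO and 85700749 in WT. Named genes were the 10 highest and 10 lowest by the median ratio, at most 4 per list, and 6 per direction and pair of genotypes, leaving out of the ranking the rule genes, those of the sex chromosomes, globins, ribosomal and mitochondrial genes and gene models without a name; a few of them are not reported here. The sets and lists were chosen with earlier results of these data known. Alternatives covered score minimum, depth, doublets, lineage-high cells, S phase cells, thresholds and TMM scaling. Tools were Python 3.11.15, numpy 2.4.6, scipy 1.17.1, scanpy 1.11.5 (Scrublet), matplotlib 3.10.9, R 4.3.3 and edgeR 4.0.16, used for TMM factors only. Promoter sequences came from RefSeq (GRCm38.p6) and gene positions from GENCODE M21. The ratio calculation was tested on simulated data.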

Additional observations from a re-analysis of the deposited data

Results flagged for a closer look

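Of 156 named genes, 2 were at least 1.5-fold higher in mitotic cells than in the rest in one library and at least 1.5-fold lower in another. For Elane the log2 ratio was 0.91 in DKO, -0.18 in KO and -1.02 in WT, so that the highest and lowest libraries differed by 1.93. For S100a8, a granule protein of neutrophils, it was 1.29 in DKO, -1.41 in KO and -0.71 in WT, a difference of 2.71. The differences between libraries were not tested, as each genotype had 1 library. The 10 cells with the most UMIs held 80.7% of the Elane UMIs of DKO mitotic cells, and for S100a8 they held 73.7% in DKO and 83.2% in KO.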

How the results depend on the processing

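No paired analysis was possible because each genotype had 1 library. The share of mitotic cells in DKO, KO and WT was 26.1%, 36.3% and 18.2% at a score minimum of 5, 10.03%, 7.80% and 6.58% at 20, 19.0%, 23.05% and 13.4% thinned to 5000 UMIs, and 20.5%, 22.2% and 16.97% thinned to 8000. Genes higher and lower in mitotic cells than in the rest numbered 430 and 297 in DKO, 584 and 279 in KO and 497 and 363 in WT with S phase cells left out of the rest. They numbered 109 and 55, 73 and 23, and 118 and 59 in DKO, KO and WT at a mean of 50 CPM, 369 and 382, 372 and 161, and 442 and 533 at 5 CPM, and 123 and 18, 85 and 14, and 137 and 31 at 2-fold. In KO a score minimum of 20 gave 523 higher and 315 lower, a minimum of 5 gave 35 lower, rest cells of like depth 91 lower, and leaving out cells high for erythroid, neutrophil or B lineage genes 99 lower. Between genotypes, leaving out those cells gave 172 higher and 218 lower for KO against WT, 340 and 74 for DKO against KO, and 54 lower for DKO against WT. At 50 CPM the counts were 277 and 233, 268 and 184, and 77 and 45, at 5 CPM 904 and 1329, 1475 and 676, and 488 and 351, and at 2-fold 150 and 170, 183 and 94, and 34 and 30, in the same order of pairs. TMM scaling gave 385 higher and 643 lower for DKO against KO, and 129 higher for DKO against WT. The licensing median against the rest turned to 1.14 in DKO and 0.89 in KO with S phase cells left out, which by construction lowers the rest, and the megakaryocyte median of DKO against KO turned to -0.063 without the lineage-high cells, where the cause was not tested. The settings that leave out lineage-high cells between genotypes, all settings for list medians between genotypes, and doublet removal for list medians were chosen after seeing the data. List medians moved by less than 1.5-fold in 576 of 630 values against the rest and 604 of 630 between genotypes. Low counts limit genes under 5 CPM, which were not called, and with 1 library per genotype the spread between animals was not measured.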
